A study of Mus musculus with 8 samples.

Results

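The distal end of mouse chromosome 2 carries a dense cluster of near-identical zinc finger genes, most of which bear predicted-gene names beginning with Gm14. The genes described here are all those lying between 174.5 and 178 Mb of chromosome 2 (GRCm38) that had at least 1 estimated count in any library. This rule held 68 genes of the 35502 with any count. Members were chosen by position and by having a count, and the cluster itself was selected on the WT and cKO counts of 2 of its genes, Gm14288 and Gm14440. Both had counts in one group only, so their values in the comparison are given as a description and support nothing. The annotation lists 90 genes in the window, of which 89 were in the table and 21 were listed at 0 in every library. The 68 comprised 40 protein-coding genes, 27 pseudogenes and 1 lincRNA.

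KRAB zinc finger proteins join a KRAB domain, which recruits the corepressor TRIM28 (KAP1), to an array of C2H2 fingers that reads DNA. Many bind transposable elements, where TRIM28 brings in the histone methyltransferase SETDB1 and heterochromatin proteins. Their genes lie in clusters that grew by tandem duplication, so neighbouring copies often share long stretches of identical sequence.

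RNA came from brown fat of C57BL/6N mice aged 20 weeks and fed chow, with 4 libraries in each of 2 groups. Both groups carried Adcy3-fl/fl, floxed alleles of adenylyl cyclase 3, which makes cyclic AMP. WT libraries had no Cre by genotype (Adcy3-FL/FL/Adipoq-wt/wt) except WT replicate 4, whose title says WT but whose genotype entry carries the Cre. The cKO libraries (Adcy3-FL/FL/Adipoq-wt/cre) carried Adipoq-Cre, which acts in adipocytes, so other cells of the tissue keep the floxed gene. The samples are labelled interscapular, while the design text says inguinal. Nothing in the labels states that libraries are from different animals, and the p-values therefore reflect library-to-library spread that may be technical.

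Libraries held 10713043 to 32437214 estimated counts. Adcy3 ran from 61.7 to 118 CPM in WT against from 17.95 to 25.3 CPM in cKO, where CPM is counts per 1000000 after TMM scaling of library size. WT replicate 4, at 118 CPM, lay with WT replicates 1 and 2 at 112 and 118 CPM. WT replicate 3 was the lowest control, at 61.7 CPM. The 9 brown fat markers summed to 10950 to 12710 CPM in WT against 9789 to 13820 CPM in cKO, a sum in which Fabp4 and Ucp1 weigh most. EdgeR called 0 of the 9. DESeq2 called 1, Prdm16, a regulator of brown fat identity (17.8 ± 3.78 CPM in WT, 30.7 ± 4.03 CPM in cKO, SD, n = 4 each, no overlap, DESeq2 adjusted p = 0.00396, edgeR adjusted p = 0.242). Over all genes DESeq2 called 0.316%, and groups did not overlap for 3.5% of tested genes. The 6 skeletal muscle markers summed to 32.5 to 7097 CPM in WT against 118 to 9053 CPM in cKO, and the 3 macrophage markers to 12.7 to 24.3 and 12.6 to 27.9 CPM. The part of Prdm16 or of muscle RNA in the results below was not tested. In bulk tissue, fewer cells of a type and less RNA per cell cannot be told apart.

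The copies resemble each other closely. For each gene, the share of its transcripts' 31-base sequences also found in another gene was counted. The median was 90.8% over the cluster and 2.52% over 35330 genes elsewhere with any count. At least 50% was shared by 62 of the 68, and 13 shared everything, against 11.2% of genes elsewhere at 50% or more. For 64 of the 68, the gene sharing most lay inside the window. The other 4, Vmn1r-ps1, Zfp831, Edn3 and Gm14618, shared no 31-base sequence with any gene of the window and had 1 to 12 counts over all libraries, so the label describes 64 of the 68. The gene Edn3 encodes the peptide endothelin 3. The estimated counts divide such reads among copies, so levels of single copies are less certain than sums over copies.

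An exon of 127 bases that encodes the A box of the KRAB domain shows how the copies relate. It was found, wholly coding, in 37 of the 68 genes in 17 distinct sequences. The sequences below were read from the annotated transcripts (GENCODE M21, GRCm38) and are shown because the genes they stand for carry the results. Capitals mark bases that differ from Gm14288 at the same place. The exon lies at chr2:175792738-175792864 on the minus strand in Gm14288 and at chr2:175283298-175283424 on the plus strand in Gm14440.
Gm14288: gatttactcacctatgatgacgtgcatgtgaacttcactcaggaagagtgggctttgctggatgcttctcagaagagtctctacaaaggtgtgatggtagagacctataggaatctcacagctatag
Zfp970: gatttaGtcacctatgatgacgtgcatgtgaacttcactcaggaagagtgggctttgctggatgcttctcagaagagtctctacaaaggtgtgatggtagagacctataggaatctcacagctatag
Gm14296: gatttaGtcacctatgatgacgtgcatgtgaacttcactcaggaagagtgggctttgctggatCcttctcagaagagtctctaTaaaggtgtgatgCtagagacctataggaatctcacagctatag
Gm14391: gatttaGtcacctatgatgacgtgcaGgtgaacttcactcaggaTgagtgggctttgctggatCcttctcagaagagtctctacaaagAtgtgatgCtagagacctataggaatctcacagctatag
Gm4631: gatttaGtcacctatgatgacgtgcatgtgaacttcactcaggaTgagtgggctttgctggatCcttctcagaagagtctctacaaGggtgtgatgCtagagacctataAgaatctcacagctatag
Zfp972: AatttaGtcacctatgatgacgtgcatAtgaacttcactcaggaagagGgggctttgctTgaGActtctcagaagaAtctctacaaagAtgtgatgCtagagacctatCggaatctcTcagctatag
Gm14440, Zfp965, Gm14435 and Zfp973 carry the Gm14288 sequence without a difference. Zfp970 differs from it at 1 base, and Zfp966, Zfp967, Zfp968 and Gm14327 have the Zfp970 sequence. Gm14296 and 2210418O10Rik differ at 4 bases. Gm4631 differs at 6, as do 6 other genes with the same exon, namely Gm4724, Gm2026, Gm14434, Gm14308, Gm14305 and Gm14410. Gm14391 and Gm6710 also differ at 6 bases, with another set of changes. Zfp972 is the farthest of those shown, at 12 bases.

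Gm14288 and Gm14440 are more alike than this exon alone shows. They lie 503 kb apart on opposite strands, Gm14440 at chr2:175275125-175286805 (plus) and Gm14288 at chr2:175789357-175801093 (minus). The longest Gm14440 transcript, of 3382 bases, is contained whole in the 3438-base Gm14288 transcript, which has 56 further bases at its 5′ end. All 31-base sequences of Gm14440 occur in Gm14288, and 97.5% of those of Gm14288 occur in Gm14440. In both of these transcripts the annotated coding sequence is 195 bases long. No C2H2 finger (C, 2 residues, C, 12 residues, H, 3 residues, H) was found in the protein of either gene, whereas 34 of the 40 protein-coding genes encoded at least 1, with a median of 12 among those 34 and up to 25 in Gm14295.

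The RefSeq promoter windows of the pair are also nearly the same. RefSeq windows (GRCm38.p6) matched 28 of the 68 genes by symbol. Those of Gm14440 and Gm14288 cover 300 bases each and share 299 of them in 1 run, offset by 1 base. The Gm14440 window, at chr2:175274875-175275174 on the plus strand, is shown because its gene was counted in cKO only, and capitals mark CCAAT or its reverse complement ATTGG.
Gm14440: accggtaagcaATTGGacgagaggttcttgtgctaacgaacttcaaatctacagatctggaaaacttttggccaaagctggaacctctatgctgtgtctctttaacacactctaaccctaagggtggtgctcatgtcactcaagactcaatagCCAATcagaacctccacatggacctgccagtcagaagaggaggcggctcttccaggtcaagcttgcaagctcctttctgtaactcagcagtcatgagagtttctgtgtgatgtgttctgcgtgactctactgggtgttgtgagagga
The Gm14288 window lies at chr2:175800989-175801288 on the minus strand and also holds 2 such matches. CCAAT on either strand was found in 26 of the 28 genes with a window, and in 41.1% of 27025 genes with a window of this length. Many of the 28 windows share long runs with that of Gm14288, so the 26 are not independent and no enrichment is read from them. No other motif was searched. With Gm14440 left out, the longest run that another gene's window shared with that of Gm14288 was 8 to 235 bases, with a median of 127. Zfp970 had the longest of these. A match of letters is a description and does not show binding.

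Gm14288, a predicted KRAB gene without fingers, had 357, 148, 106 and 144 counts in WT replicates 1 to 4 and 0 in every cKO library. Its level was 11.1, 10.6, 5.27 and 10.9 CPM in the WT libraries, a mean of 9.45 ± 2.80 (SD, n = 4). Taking 3 counts summed over cKO as the floor, which covers counting error only, it was at least 171-fold lower in cKO. WT replicate 3 was the lowest WT library, and the groups did not overlap.

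Gm14440, its near-copy, showed the opposite presence. It had 0 counts in every WT library and 161, 183, 137 and 150 counts in cKO replicates 1 to 4. Its level there was 10.9, 18.3, 8.70 and 11.1 CPM, with a mean of 12.3 ± 4.16 CPM (SD, n = 4), at least 310-fold higher against the same floor over the WT group. The highest library was cKO replicate 2, and the groups did not overlap.

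Summed over the pair, the libraries could not be separated by group. The sum was 9.45 ± 2.80 CPM in WT against 12.3 ± 4.16 CPM in cKO (SD, n = 4 each), a ratio of 1.30, with overlapping groups. Gm14435, which shares a contained transcript with both, had 1.93, 4.07, 2.24 and 1.28 CPM in WT against 1.22, 2.50, 2.48 and 3.41 CPM in cKO, and was counted in every library. With Gm14435 added, the sum ran from 7.50 to 14.7 CPM in WT against from 11.2 to 20.8 CPM in cKO. WT replicate 4, with a Cre in its genotype entry, had 0 counts of Gm14440 and 144 of Gm14288, the same presence as in the other WT libraries. How reads were divided between the copies is not recorded in the table, and its part in the pattern was not tested.

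**Figure D1:**
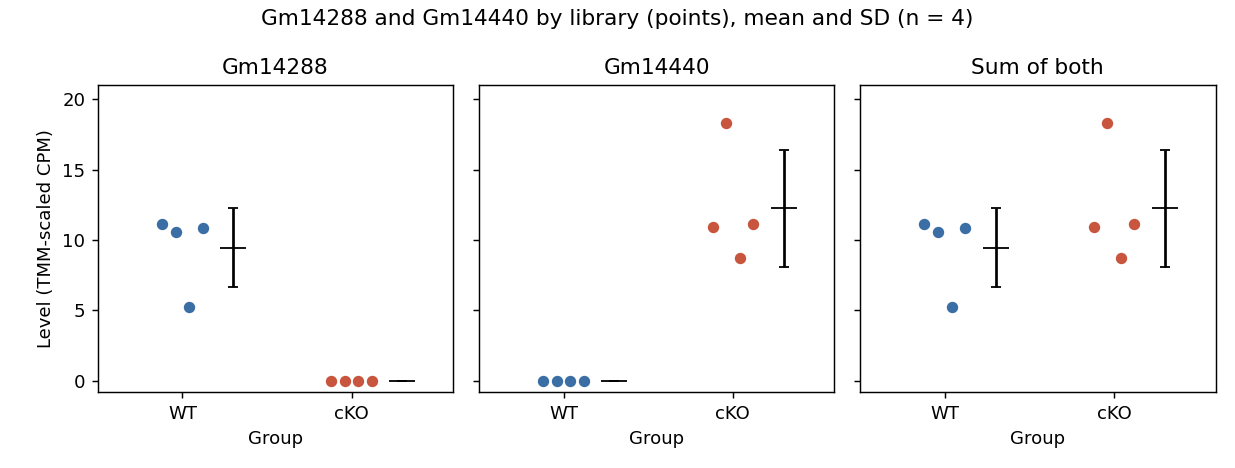
Levels of Gm14288, Gm14440 and their sum in TMM-scaled CPM (vertical axis) for WT and cKO. Points are libraries and the black bar is the mean with SD (n = 4). Gm14288 is at 0 in all cKO libraries and Gm14440 at 0 in all WT libraries, while the sums overlap.

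Present in one group only is used here for 0 counts in every library of one group and at least 10 counts over the other. Over all genes 153 of 35502 met this rule (0.431%), 107 with counts in WT only and 46 in cKO only. In the cluster 2 of 68 met it, the 2 that prompted the choice, so nothing is read from their number. Of the 153, 112 shared at least 50% of their 31-base sequences with other genes. Among 3966 genes elsewhere that shared as much, 110 were present in one group only (2.77%), and among 361 genes elsewhere with a Zfp symbol 1 was (0.277%). With at least 50 counts over all libraries, the numbers were 2 of 40 in the cluster, beside 0.178% of all genes with as many counts, and 27 of 1059 (2.55%) among the genes elsewhere with such sharing.

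Most other copies with zeros were low. Of the 68, 36 were counted in all 8 libraries and 32 were at 0 in some, and 16 had under 10 counts over the 8 libraries. Among the 40 with at least 50 counts, 7 were at 0 in some library, namely Gm14288, Gm14440, Gm2004, Gm14434, Gm14416, Gm16363 and Zfp972. Gm14434 was the best counted of these apart from the pair, with 371 counts in all and a 0 in cKO replicate 2 alone. At a minimum of 3 counts in the other group, 3 more pseudogenes were present in one group only. Gm14298 had 6 counts and Gm14297 3 counts in cKO, and Gm14405 had 6 counts in WT. At this depth such small counts cannot be told from 0.

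The whole cluster was a small part of the RNA, and its sum did not separate the groups. The 68 genes together took 0.0215% to 0.0347% of the scaled counts. Their sum was 251, 234, 215 and 239 CPM in WT replicates 1 to 4 and 246, 347, 231 and 290 CPM in cKO replicates 1 to 4. The means were 235 ± 14.9 CPM in WT against 279 ± 52.4 CPM in cKO (SD, n = 4 each), a ratio of 1.19. The highest library was cKO replicate 2, and cKO replicates 1 and 3 lay within the range of WT. Without cKO replicate 2 the ratio was 1.09, and on total counts in place of TMM it was 1.10. Pseudogenes made up 9.24 ± 1.13 CPM in WT against 11.7 ± 2.55 CPM in cKO, and the protein-coding genes the remainder but for the lincRNA.

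**Figure D2:**
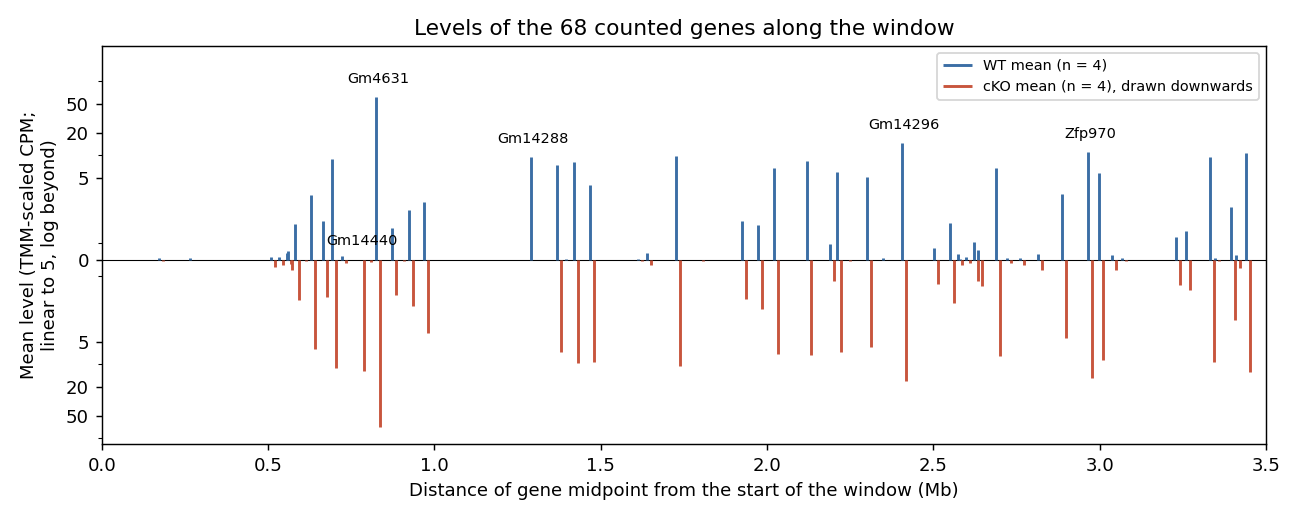
Mean level of each of the 68 genes (TMM-scaled CPM, linear to 5 and logarithmic beyond) against distance of the gene's midpoint from the start of the window in Mb. Blue lines upwards are WT means and red lines downwards cKO means (n = 4 each). Gm4631 is the tallest in both groups, Gm14288 has no cKO line and Gm14440 no WT line.

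One gene led the cluster in every library. Gm4631, a protein-coding gene with 13 fingers, took 23.6% to 29.7% of the cluster's sum, 25.6% on average, and the 5 most abundant genes took 45.3%. Levels per length used the plain mean length of a gene's annotated transcripts, short ones included, so the order depends on that choice. Gm4631 was at 22.1 CPM per kb over all libraries, followed by Zfp970 at 11.1, Gm14326 at 9.16, Gm14325 at 8.40 and Gm14403 at 8.06 CPM per kb. Gm14440 and Gm14288 were at 3.43 and 2.55 CPM per kb, in means that include the libraries at 0. Their mean lengths, 1787 and 1852 bases, include transcripts of 192 and 267 bases.

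Gm4631 had 61.4, 56.5, 63.8 and 60.1 CPM in WT against 61.1, 81.8, 67.5 and 69.3 CPM in cKO. Its groups overlapped through cKO replicate 1, and it did not pass edgeR's test (log2 fold change 0.21 ± 0.11 SE, adjusted p = 0.889).

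Tested over all genes, few copies passed. A count filter, filterByExpr, kept 35 of the 68, and 33 were too low to be tested. EdgeR's quasi-likelihood test called 10 of 14553 genes at an adjusted p of 0.05 (0.0687%), and 2 of the 35, Gm14440 higher (0.0481% of all genes were called higher) and Gm14288 lower (0.0206% called lower). Both prompted the choice of the cluster, so nothing is read from their count. When WT replicate 4 was counted as cKO, 0 of the cluster were called. With counts summed over genes sharing at least 50% of their 31-base sequences, 0 were called too. That summing puts Gm14288 and Gm14440 in the same row, so it does not test the 35 copies again. DESeq2 called 2 of the 35 (0.316% of all genes), limma-voom 2 (0.0687%), and edgeR without the count filter 3 of 68 (0.262%), the third being Gm2026. Groups did not overlap for 2 of 35 against 3.5% of tested genes, and for 2 of 68 against 2.05% of genes with any count. Among 869 tested genes elsewhere that shared at least 50% of their 31-base sequences, edgeR called 7 (0.806%).

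At an unadjusted edgeR p under 0.05 there were 5 of the 35, against 5.6% of all tested genes. The 5 include Gm14288 and Gm14440, which prompted the choice of the cluster, so nothing is read from this number. Besides the pair, the 5 held Gm2026, Gm14399 and Gm14419, each with overlapping groups and none called by edgeR. Gm2026, which encodes 13 fingers, had 5.88, 3.57, 1.79 and 7.02 CPM in WT against 9.69, 10.98, 5.20 and 10.9 CPM in cKO (log2 fold change 1.01 ± 0.41 SE, edgeR adjusted p = 0.882, but adjusted p = 0.00796 without the count filter). Only cKO replicate 3 lay within the WT range. Gm14399, with 18 fingers, had 4.88, 3.86, 3.38 and 3.70 CPM in WT against 4.74, 8.09, 4.13 and 7.72 CPM in cKO (log2 fold change 0.63 ± 0.25 SE, edgeR adjusted p = 0.882). Gm14419, named here because it is 1 of the 5 and outside the rule for named genes, had 1.18, 0.715, 0.596 and 0.378 CPM in WT against 1.69, 0.999, 1.78 and 1.41 CPM in cKO (log2 fold change 0.99 ± 0.40 SE, edgeR adjusted p = 0.882).

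More of the tested copies had positive than negative fold changes, none of them called apart from the pair. Of the 35, 29 were positive and 6 negative, with a median log2 fold change of 0.20, beside 51.8% positive and a median of 0.01 over all 14553 genes. Copies that share reads are not independent, so this count carries no test. On total counts 25 were positive and 10 negative with a median of 0.08, while the median of all genes shifted to -0.105 and 30.4% of them were positive. The members' median lay 0.19 above that of all genes under both scalings. A change of scaling moves all genes nearly alike, so the equal distance is no check of it. Leaving out 1 library at a time gave 24 to 31 positive. Of all 68 genes, 48 had a higher mean in cKO and 20 a lower one, a count that includes genes of a few reads.

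**Figure D3:**
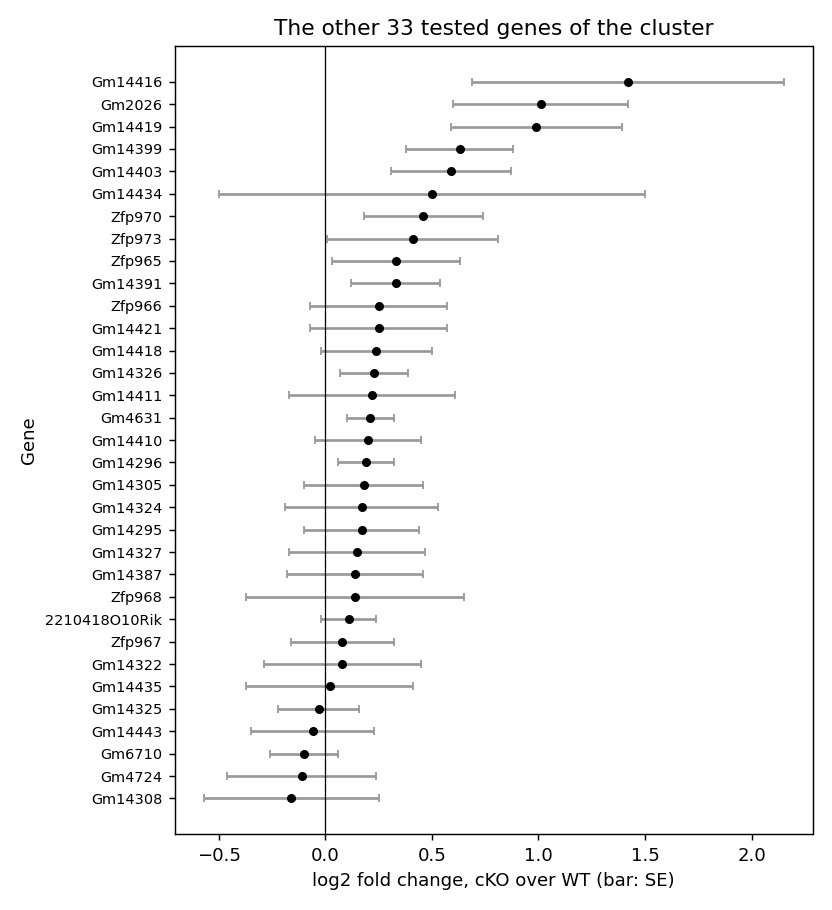
Log2 fold change of cKO over WT (horizontal axis, bars are SE) for the 33 tested genes other than Gm14288 and Gm14440, in order of size. Values run from -0.16 for Gm14308 to 1.42 for Gm14416, and 28 of the 33 points lie above 0.

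Identical stretches tie some copies into sets. In 7 sets, holding 19 genes, a whole transcript of at least 400 bases of one gene is identical to, or contained in, a transcript of another. Shorter transcripts were not used for the sets, although some are contained too, such as that of Gm16358, whose 31-base sequences all occur in Gm14298. The largest set is Gm4631, Gm4724, Gm2026, Gm14434 and Gm14308. A Gm14434 transcript of 1497 bases is also a transcript of Gm2026 and of Gm4724, and is contained in longer ones of Gm14308 and Gm4631.

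Within this set the level of a single low copy varied more between libraries than the sum. Gm14434 had 3.11, 0.786, 3.48 and 1.06 CPM in WT against 1.36, 0, 5.33 and 5.34 CPM in cKO. Gm14308 had 5.85, 9.22, 8.49 and 10.1 CPM in WT against 8.47, 13.6, 3.05 and 5.27 CPM in cKO, and it was highest in cKO replicate 2, where Gm14434 was at 0. The coefficient of variation of Gm14434 was 65.6% in WT and 91.3% in cKO. Summed, Gm14308 and Gm14434 stood at 10.5 ± 1.32 CPM in WT against 10.6 ± 2.19 CPM in cKO (SD, n = 4 each), with coefficients of variation of 12.6% and 20.7%. These genes were paired after the data were seen, and their sum does not stand for the set. The gene sharing most with Gm14434 is Gm2026, which holds 98.5% of its 31-base sequences. Gm2026 stood at 4.57 ± 2.34 CPM in WT against 9.20 ± 2.73 CPM in cKO, with overlapping groups. Gm4724 had 3.64, 3.00, 1.99 and 3.55 CPM in WT against 1.90, 1.70, 5.01 and 2.60 CPM in cKO, with overlapping groups.

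The sum of the 5 was 79.9, 73.1, 79.6 and 81.8 CPM in WT against 82.5, 108, 86.1 and 93.5 CPM in cKO. Its means were 78.6 ± 3.80 and 92.5 ± 11.3 CPM (SD, n = 4 each), a ratio of 1.18. The groups did not overlap under TMM or DESeq2 scaling, but they overlapped on total counts, where the ratio was 1.09. The sums were formed after the data were seen and have no test.

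**Figure D4:**
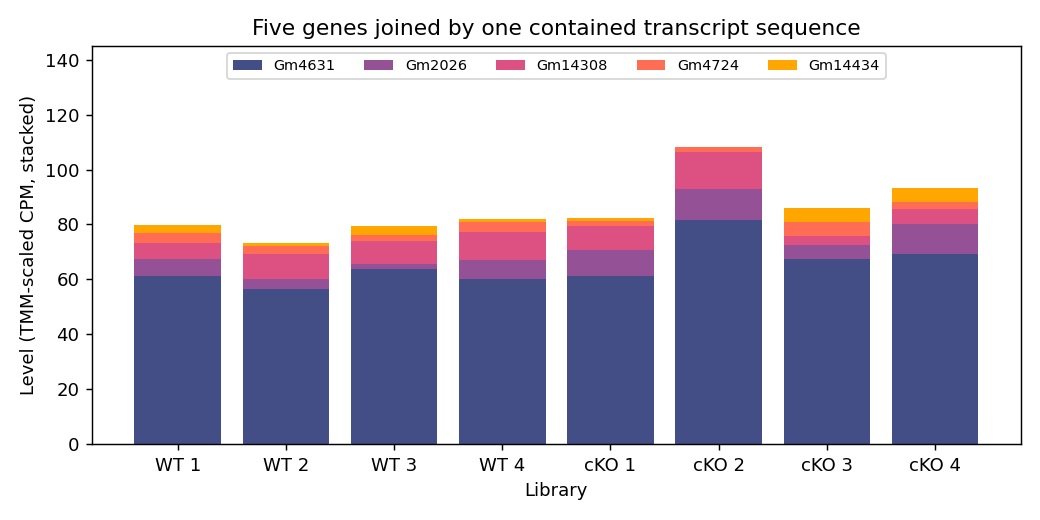
Levels of Gm4631, Gm2026, Gm14308, Gm4724 and Gm14434 stacked for each of the 8 libraries (TMM-scaled CPM, axis from 0). Gm4631 makes up most of each bar, cKO replicate 2 is the tallest at 108 CPM, and the share of the 4 smaller copies differs from library to library.

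The sums of the other sets overlapped between groups. Gm14391 and Gm6710, with 16 fingers each, summed to 16.3 ± 1.08 CPM in WT against 18.2 ± 3.90 CPM in cKO. Zfp966, Zfp967 and Zfp968, with 11 fingers each, summed to 16.8 ± 4.20 and 19.0 ± 7.33 CPM, and Zfp965 with Zfp973 to 4.45 ± 1.13 and 5.74 ± 1.75 CPM. 2210418O10Rik and Gm14296, with 1 finger each by this pattern, summed to 24.1 ± 1.26 and 27.0 ± 2.65 CPM. Gm2004 with Gm14419 summed to 1.16 ± 0.506 and 1.81 ± 0.248 CPM (SD, n = 4 each).

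Of the remaining abundant copies, none was called by edgeR and all overlapped between groups. Zfp970, with 14 fingers and a promoter close to that of Gm14288, had 14.3, 11, 6.36 and 12.2 CPM in WT against 10.6, 22.6, 13.2 and 14.3 CPM in cKO (log2 fold change 0.46 ± 0.28 SE, edgeR adjusted p = 0.894). Its lowest WT library was replicate 3 and its highest cKO library replicate 2, as was so for 12 of the 33 tested genes other than the pair and for the sum of the cluster. The share of all tested genes with this order was not counted, so it is not read as a trait of the cluster. Gm14326, with 15 fingers, had 11.7, 8.79, 10.7 and 12 CPM in WT against 15.1, 13.9, 10.03 and 11.7 CPM in cKO (log2 fold change 0.23 ± 0.16 SE). Gm14325, with 14 fingers, stood at 9.54 ± 1.75 and 9.39 ± 1.98 CPM (log2 fold change -0.03 ± 0.19 SE), the smallest change in size among the named genes of the cluster.

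Gm14403, with 9 fingers, had 5.66, 6.50, 3.63 and 7.25 CPM in WT against 8.94, 12.5, 4.95 and 8.24 CPM in cKO (log2 fold change 0.59 ± 0.28 SE, edgeR adjusted p = 0.886). Only cKO replicate 3 lay within the WT range. Gm14295, which has the most fingers of the cluster, stood at 5.12 ± 1.49 and 5.78 ± 1.98 CPM, Gm14305 at 6.01 ± 1.95 and 6.86 ± 2.17 CPM and Gm14410 at 6.69 ± 1.58 and 7.68 ± 2.71 CPM. Gm14418 stood at 4.01 ± 1.00 and 4.75 ± 1.33 CPM, Gm14327, which like Gm14288 encodes no finger, at 3.24 ± 1.18 and 3.65 ± 1.26 CPM, and the pseudogene Gm14421 at 2.21 ± 0.668 and 2.65 ± 0.860 CPM. These 6 genes had log2 fold changes from 0.15 to 0.25.

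**Figure D5:**
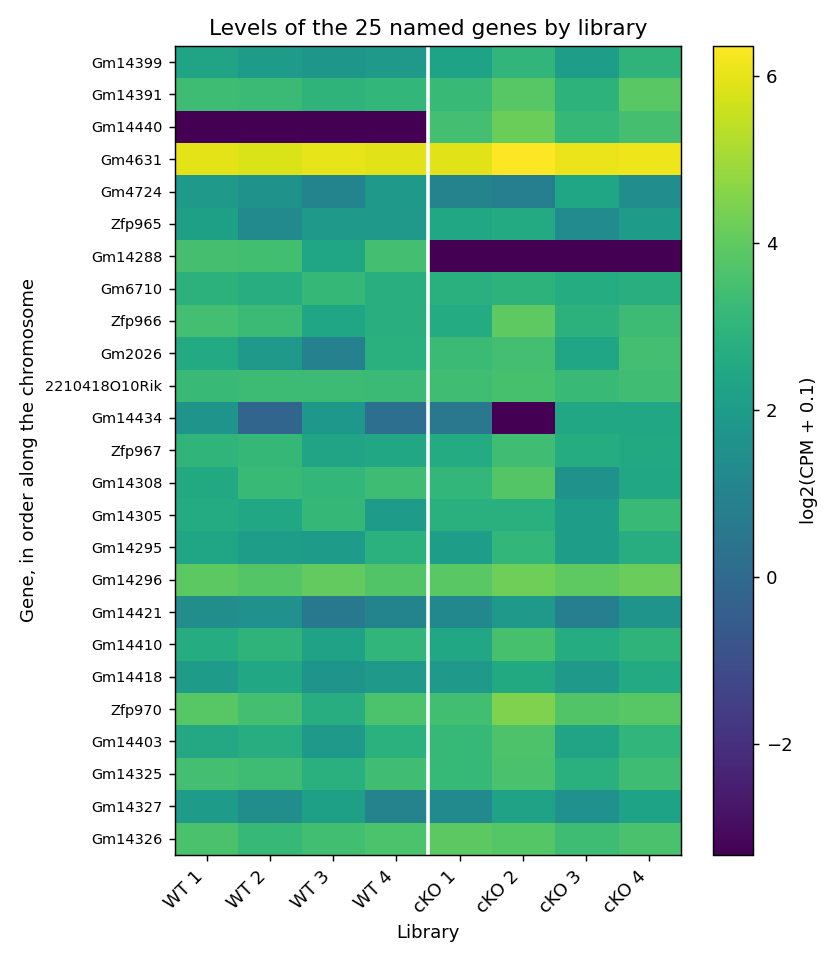
Level of the 25 named genes (rows, in order along the chromosome) in the 8 libraries (columns, WT left of the white line) as log2 of CPM plus 0.1. The darkest cells, at 0 CPM, are Gm14440 in the 4 WT libraries, Gm14288 in the 4 cKO libraries and Gm14434 in cKO replicate 2.

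A list of KRAB corepressor genes and other genes of repressive chromatin held none that passed the test. All 26 listed genes were tested, with 15 positive and 11 negative log2 fold changes and a median of 0.03. EdgeR, DESeq2 and limma-voom each called 0 of the 26, and 1 had an unadjusted edgeR p under 0.05, against 5.6% of all tested genes. That gene, named after its values were seen, was Ehmt2, a histone H3 lysine methyltransferase. It had 66.7, 75.6, 84.4 and 66.96 CPM in WT against 61.0, 48.0, 59.9 and 53.8 CPM in cKO, with no overlap (log2 fold change -0.40 ± 0.12 SE, edgeR adjusted p = 0.784). Groups did not overlap for 3.5% of all tested genes.

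The 3 most abundant of the list were remodellers. Chd4, a NuRD remodeller, stood at 209.6 ± 8.75 CPM in WT against 184.5 ± 10.25 CPM in cKO (SD, n = 4 each). Its groups did not overlap either, as for 3.5% of all tested genes (log2 fold change -0.18 ± 0.10 SE, edgeR adjusted p = 0.890). Chd3, its paralogue, stood at 96.6 ± 10.4 and 93.5 ± 16.4 CPM (log2 fold change -0.05). Atrx, a remodeller of heterochromatin, stood at 85.1 ± 3.86 and 85.5 ± 7.65 CPM (log2 fold change 0.01).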

How the data were processed

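The authors deposited 1 table of estimated counts for 54385 genes and 8 libraries. StringTie, Salmon and edgeR are named without versions, with the build GRCm38, per the submitters' processing notes. The sources used here do not give the annotation release. Paired-end libraries were made with a NEBNext Ultra II kit, per the labels' protocols. Such counts split shared reads between copies by estimate, so levels of near-identical copies depend on the split.

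Members, lists and tests were chosen with earlier results of these data known. GENCODE M21 named 54131 identifiers (99.5%). The estimated counts were rounded and tested with the robust quasi-likelihood test of edgeR (version 4.0.16, in R 4.3.3) after filterByExpr and TMM, with group as the only term and Benjamini-Hochberg adjustment over all 14553 genes. Alternatives were DESeq2 1.42.0, limma-voom (limma 3.58.1), other scalings and filters, leaving out each library, a replicate block, moving WT replicate 4 to cKO, and counts summed over genes sharing sequence. Sequence counts used Python 3.11.15. The procedure was tested on simulated counts drawn for each gene on its own. These held no reads divided between copies, so the simulation does not cover that step. Replicates differed beyond sampling noise in every pair (chi-square of at least 14.5 per degree of freedom). The titles gave the groups. Named are Gm14288, Gm14440, called genes, genes present in one group only and the most abundant until 25 were reached. The 3 most abundant genes of the corepressor and chromatin list, where none was called, and Adcy3 were added.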

Additional observations from a re-analysis of the deposited data

Results flagged for a closer look

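The 25 named genes and the sum of the cluster gave 50 groups of 4 libraries, after the 2 groups at 0 throughout were left out, and 3 had a library whose distance to its nearest neighbour was a large part of the group's range (Dixon's criterion at 95%). Chance alone gives about 1 in 20 such groups. Gm14288 in WT replicate 3 stood at 5.27 CPM, against 10.6 to 11.1 CPM in the other WT libraries. Gm14325 in WT replicate 3 stood at 6.95 CPM, against 10.2 to 10.8 CPM in the others. Zfp967 in cKO replicate 2 stood at 10.5 CPM, against 5.72 to 6.28 CPM in the other cKO libraries. The cause of these values was not tested.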

How the results depend on the processing

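EdgeR called 10 genes in all and 2 of the cluster. The number of genes called in all was 46 with DESeq2 and 93 without a count filter. With WT replicate 4 moved to cKO it was 1, with 0 in the cluster. With counts summed over genes sharing sequence it was 1, also with 0 in the cluster. The summing puts Gm14288 and Gm14440 in the same row, so that 0 is not a count over single copies. Leaving out 1 library gave 8 to 14 genes in all and 2 in the cluster each time. The number of cluster genes present in one group only, 2, became 5 at a minimum of 3 counts and 1 with WT replicate 4 moved, and was 2 to 3 with 1 library left out. The summed level had a ratio of 1.09 to 1.25 with 1 library left out.

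With WT replicate 4 moved, Gm14288 lost its call (log2 fold change -2.05, edgeR adjusted p = 0.818), as did Gm14440 (10.35, 0.685) and Adcy3 (-1.26, 0.747). In the same setting the log2 fold changes of genes that were never called changed sign for Gm4724 (0.045), Zfp967 (-0.076), Gm14308 (0.047), Gm14305 (-0.092), Gm14325 (0.039) and Gm14327 (-0.17). Gm14434 turned to -0.50 with limma-voom, and Atrx to -0.0054 with upper quartile factors and -0.012 without the count filter. Gm2026 was called without the count filter (0.99, edgeR adjusted p = 0.00796).

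With 1 library left out, log2 fold changes that crossed 0 ran from -0.55 to 0.061 for Gm4724, -0.058 to 0.43 for Zfp966, -0.16 to 0.21 for Zfp967, -0.58 to 0.11 for Gm14308, -0.005 to 0.40 for Gm14305, -0.047 to 0.38 for Gm14295, -0.058 to 0.34 for Gm14410, -0.15 to 0.093 for Gm14325, -0.023 to 0.34 for Gm14327, -0.16 to 0.042 for Chd3 and -0.049 to 0.059 for Atrx. The cause of these changes was not tested.

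With the replicate number as a block, edgeR called 7 genes, of which 2 in the cluster (Gm14288 adjusted p = 0.00401, Gm14440 adjusted p = 0.00192), and Adcy3 was not called (log2 fold change -2.23, adjusted p = 0.225). Deviations of same-numbered libraries correlated at -0.464, 0.0350, 0.409 and 0.00160, and only WT replicate 3 correlated best with its own number, so the numbers were not taken to pair the libraries. Depth limits the low copies, since 33 of the 68 were too low to be tested.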
